A study of Mus musculus with 2 samples.

Results

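The nuclear genes for subunits and assembly factors of the mitochondrial respiratory chain and ATP synthase were measured in mouse hematopoietic stem cells. They were chosen by symbol alone, as protein coding genes whose names begin with Nduf, Sdhaf, Uqc, Atp5 or Cox and a digit, together with Sdha, Sdhb, Sdhc and Sdhd, leaving out symbols that contain -ps. The rule found 109 genes among 43346 Ensembl genes in the tables, of which 21461 are nuclear and protein coding, and it used no measured value. The study holds a single group of 2 libraries, numbered as biological replicates 1 and 2. Each library was made from total RNA of 100 cells labelled as hematopoietic stem cells from adult male C57BL/6J mice aged 5 to 6 weeks, with spike-ins added. The labels do not state the gate by which cells were taken. Both libraries carry the same donor identifier under different biosample identifiers, and separate animals are not stated, so the spread between them may be technical. No second condition was compared, and values are given per library without a test. Where a pair of values is given, replicate 1 stands first.

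Oxidative phosphorylation takes electrons from NADH at complex I and from succinate at complex II, passes them through complex III and cytochrome c to oxygen at complex IV, and uses the resulting proton gradient to make ATP at complex V. Complexes I, III, IV and V join nuclear-encoded subunits to a few made inside the mitochondrion, while complex II is wholly nuclear-encoded. Assembly factors insert cofactors or hold intermediates and are absent from the finished enzyme. Hematopoietic stem cells are known for low mitochondrial activity and reliance on glycolysis while quiescent.

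Promoters of these genes are known targets of nuclear respiratory factor 1 (NRF1), of the ETS family factor GABP, also called NRF2, and of YY1. Their motifs were therefore looked for in 300 bases of RefSeq promoter sequence (GRCm38.p6), running from 250 bases before to 50 bases after each annotated start, on both strands. Windows were matched for 88 of the 109 genes. A gene with several annotated starts has several windows, and it was counted for a motif if any of them held it. The full NRF1 palindrome GCGCATGCGC stood in 7 of these 88 (7.95%), against 1.47% of 17492 protein coding genes. The stretches below show 5 of the 7, in which the palindrome (capitals) lies upstream of the start, and they come from ATP synthase, cytochrome c oxidase and complex I genes. Ndufaf5 and Uqcrc1 hold it elsewhere in the window.
Atp5g2 (c subunit, chr15:102671055-102671114, minus strand): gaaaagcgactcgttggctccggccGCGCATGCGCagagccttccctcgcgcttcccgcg
Atp5k (e subunit, chr5:108434415-108434474, minus strand): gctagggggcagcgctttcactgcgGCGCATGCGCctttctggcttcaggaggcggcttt
Cox6a1 (complex IV subunit, chr5:115349086-115349145, minus strand): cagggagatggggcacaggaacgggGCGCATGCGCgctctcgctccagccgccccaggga
Ndufa11 (complex I subunit, chr17:56717677-56717736, plus strand): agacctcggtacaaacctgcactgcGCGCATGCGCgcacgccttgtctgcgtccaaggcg
Ndufaf4 (complex I assembly factor, chr4:24897945-24898004, plus strand): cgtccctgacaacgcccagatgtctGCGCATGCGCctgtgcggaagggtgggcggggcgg

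With the centre base left free (GCGCANGCGC, a motif that includes the palindrome), 22 of 88 genes matched (25.0%), against 7.17% of all coding genes. The ETS core CCGGAAG was found in 26 genes (29.5%, against 12.9%) and the YY1 motif AAGATGGC in 13 (14.8%, against 3.57%). At least 1 of these 3 motifs was present in 50 genes (56.8%), against 21.03% of all coding genes. The CCAAT box, searched as CCAAT, was about as frequent as elsewhere, in 43.2% against 42.3%. The TATA box, searched as TATAAA, stood in 10.2% against 14.8%. The estrogen-related receptor motif TCAAGGTCA occurred in 2 genes, Atp5g3 and Sdhd, which is 2.27% of the 88 genes against 0.377%. A match describes the letters of a window and is not evidence that a factor binds there. Genes differ in GC content and in the number of annotated starts, and the part of either in these shares was not tested.
Atp5j (F6 subunit, chr16:84835031-84835090, minus strand, YY1 motif in capitals): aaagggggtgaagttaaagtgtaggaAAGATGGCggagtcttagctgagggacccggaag
Cox20 (complex IV assembly factor, chr1:178319052-178319111, plus strand, YY1 motif in capitals): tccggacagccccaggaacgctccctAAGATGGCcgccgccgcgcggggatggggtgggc
Cox6b1 (complex IV subunit, chr7:30626115-30626174, minus strand, ETS core in capitals as its reverse complement): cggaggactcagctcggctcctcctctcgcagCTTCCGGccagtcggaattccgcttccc

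By role, the NRF1 motif with a free centre base stood in 17 of 62 subunit genes and 5 of 21 assembly factor genes. The ETS core was in 16 of the 62 subunit genes and 10 of the 21 assembly factor genes, and the YY1 motif in 9 and 4. None of the 3 motifs was in the windows of the 4 tissue-restricted isoform genes that had one.

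**Figure D1:**
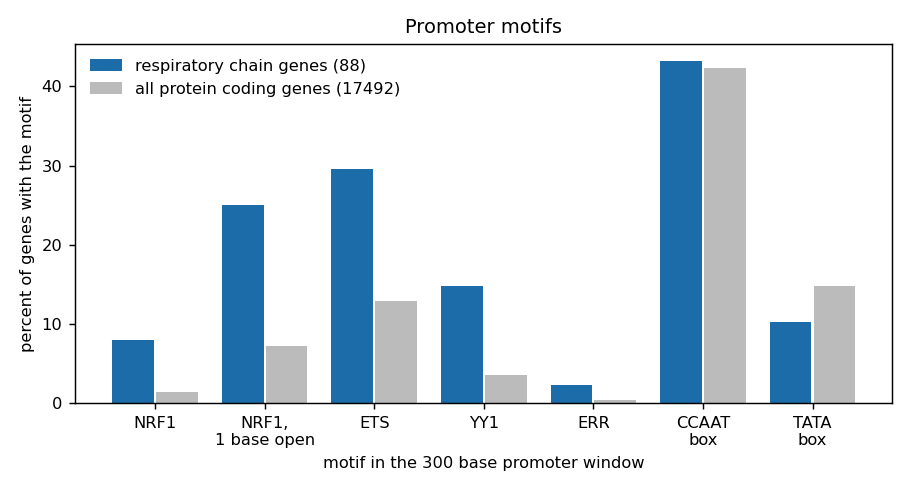
Share of genes (percent, vertical axis) with each motif (horizontal axis) in at least 1 promoter window of 300 bases. Shares are for the 88 respiratory chain genes with a window and for 17492 protein coding genes. The NRF1, ETS and YY1 bars of the respiratory chain genes stand above the bars of all genes, whereas the CCAAT bars are nearly level at 43.2% and 42.3%.

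Expected counts of Ensembl genes summed to 48307557 in replicate 1 and 28945011 in replicate 2. Nuclear protein coding genes held 30.03% and 26.5% of all TPM (an abundance corrected for transcript length, with the same total in each library), and the respiratory chain genes held 1.25% and 1.18% of that coding part. Both libraries detected 9 of 10 stem and progenitor markers and 8 of 8 erythroid genes.

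Detection in a library meant an expected count of 10 or above together with a TPM of 1 or above. By this rule 93 of the 109 genes (85.3%) were detected in both libraries, against 45.5% of nuclear protein coding genes. Replicate 1 alone detected 1 gene, Sdhaf4, where 2.09% of coding genes fell in that class, and replicate 2 alone detected 9 genes, where 4.52% did. At least 1 library detected 103 genes, against 52.1% of coding genes. The 6 genes detected in neither are all tissue-restricted isoforms of complex IV subunits: Cox4i2, Cox7a1, Cox7b2, Cox8b, Cox8c and Ndufa4l2. The median level over all 109 genes was 17.6 and 14.3 TPM (16.0 ± 2.35 TPM, SD, n = 2). Among genes detected in both libraries the medians were 20.9 and 18.5 TPM, beside 14.0 and 12.5 TPM for all such nuclear coding genes. The respiratory chain genes are short, with a median effective length of 619 and 633 bases against 2217 and 2238 bases, so a given TPM rests on fewer reads.

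Subunits stood above assembly factors in both libraries. The median over 83 subunit genes was 20.8 and 19.2 TPM, and over 24 assembly factor genes it was 6.25 and 4.08 TPM. The difference of these medians on the log2(TPM + 1) scale was 1.59 and 1.99 (1.79 ± 0.29, SD, n = 2). Subunits were higher in each complex with assembly factors in the set, by 2.27 and 1.85 in complex I, 2.56 and 3.26 in complex II, 1.24 and 2.66 in complex III, and 1.57 and 0.57 in complex IV. The spread within each class was wide, since the complex IV assembly factor Cox20 was above most subunits in both libraries. Cox7a2l, a supercomplex factor, and Atp5s, a coupling factor, were counted in neither class.

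**Figure D2:**
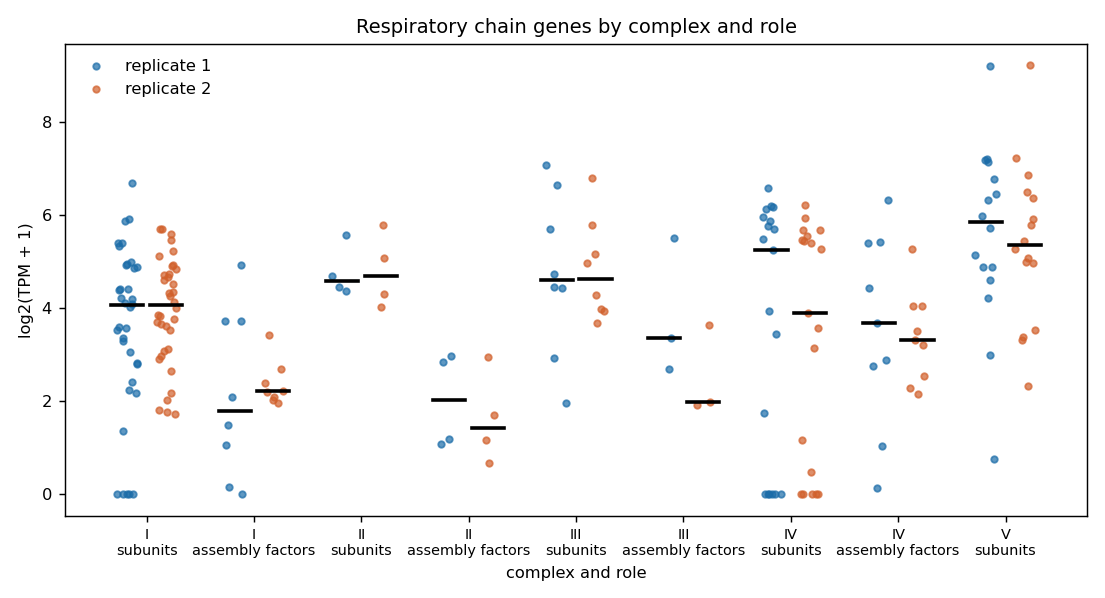
Levels of the 109 genes apart from Cox7a2l and Atp5s, as log2(TPM + 1) on the vertical axis, by complex and role on the horizontal axis. Each point is 1 gene in 1 library (blue, replicate 1; orange, replicate 2), and each black line is the median. Subunit medians lie above assembly factor medians in complexes I to IV, and points at 0 in complex I are present in replicate 1 only, while in complex IV they are tissue-restricted isoforms.

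Complex V had the highest sum of subunit TPM in both libraries. Its subunit genes had medians of 57.0 and 39.9 TPM. The subunit medians of the other complexes were 15.7 and 15.7 TPM for complex I, 22.9 and 25.8 TPM for complex II, and 23.3 and 24.5 TPM for complex III. Complex IV stood at 37.2 and 13.8 TPM over all its subunit genes, and at 53.4 and 42.9 TPM without tissue-restricted isoforms, which is above complex V in replicate 2. Summed over subunit genes, complex V reached 1544 and 1349 TPM, followed by complex I with 714 and 688, complex IV with 637 and 478, complex III with 361 and 289, and complex II with 112 and 121 TPM. These sums depend on the number of subunit genes in each complex.

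Atp5b, which encodes the catalytic beta subunit of the F1 head (chromosome 10, 128083273 to 128090391, plus strand), was the highest of all respiratory chain genes at 586 and 594 TPM. It ranked 31st and 28th among nuclear coding genes. Its partner in the head, the alpha subunit gene Atp5a1, reached 147 and 150 TPM, and the central stalk gene Atp5c1 79.5 and 81.7 TPM. These F1 genes lay close together between libraries, and the delta subunit gene Atp5d was also near, at 51.6 and 59.5 TPM. The epsilon subunit gene Atp5e was apart, at 62.4 TPM from 598 counts and 10.5 TPM from 87 counts.

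The proton-carrying c-ring is built from 1 mature protein encoded by 3 genes, and their shares differed between the libraries. Atp5g1 stood at 143 and 115 TPM and Atp5g3 at 28.6 and 30.9 TPM. Atp5g2 was level with Atp5g1 in replicate 1, at 140 TPM, but not in replicate 2, at 54.0 TPM. Together the 3 genes gave 312 and 200 TPM. With the TPM of near-identical pseudogenes (treated below) added, Atp5g2 came to 154 and 87.0 TPM, within 2-fold between libraries. Atp5g1 then came to 153 and 122 TPM. Of the peripheral stalk, which keeps the head from turning, Atp5h was measured at 108 and 89.4 TPM, Atp5o at 86.1 and 42.3 TPM, Atp5f1 at 34.5 and 37.5 TPM, and Atp5j at 23.2 and 32.5 TPM. The 4 small membrane subunit genes had a median of 12.2 and 9.19 TPM. Atp5j2 stood at 28.5 and 30.2 TPM, near Atp5j, while Atp5k gave 17.6 and 4.01 TPM, Atp5mpl 6.94 and 9.37 TPM, and Atp5l 0.68 and 9.01 TPM.

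Complex I, the largest of the complexes, showed a contrast between its catalytic core and its accessory subunits. The 7 core genes, whose proteins carry the flavin, the iron-sulfur clusters and the quinone site, had medians of 30.9 and 27.6 TPM, and all 7 were detected in both libraries. On the log2(TPM + 1) scale each differed by less than 2-fold between libraries, Ndufs7 only just, at 0.99. Ndufs7 was highest at 102 and 50.9 TPM, and Ndufs8 was measured at 39.6 and 34.0 TPM. Ndufs1, which encodes the largest subunit, was at 30.9 and 27.6 TPM and Ndufv1, which encodes the flavin-binding subunit, at 28.4 and 25.4 TPM. Ndufv2 gave 17.6 and 24.4 TPM and Ndufs3 15.2 and 14.9 TPM.

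The 29 accessory subunit genes had medians of 10.6 and 12.6 TPM, and 24 were detected in both libraries. By the mean of the libraries the highest were Ndufa10 (41.4 and 50.8 TPM), Ndufb9 (41.3 and 42.8 TPM) and Ndufa3 (28.0 and 46.9 TPM). The lowest detected in both were Ndufa11 (3.49 and 2.50 TPM), Ndufa6 (1.57 and 7.69 TPM) and Ndufa1 (5.99 and 7.43 TPM). The other 5 had no count in replicate 1. In replicate 2 these were Ndufb2 with 140 counts (6.46 TPM), Ndufa5 with 30 (5.29 TPM), Ndufb4 with 30.3 (2.42 TPM), Ndufs5 with 25 (3.49 TPM) and Ndufb6 with 22 (2.29 TPM). A count of 0 in replicate 1 allows up to 3 counts, which is 0.0829 TPM for Ndufb2, 0.236 TPM for Ndufa5 and 0.225 TPM for Ndufs5, for counting error only. Among the 8 assembly factor genes, with medians of 2.54 and 3.64 TPM, Ndufaf6 also had no count in replicate 1 and 38 in replicate 2, and Ndufaf8 had 1 and 33. Ndufaf3 was at 29.5 and 4.27 TPM, Ndufaf1 at 12.3 and 9.76 TPM, and Ndufaf5 at 12.3 and 3.09 TPM.

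Of the 100 respiratory chain genes with at least 20 counts in replicate 2, 6 had no count in replicate 1, where 7.14% of coding genes did. In the other direction 0 of 93 had none in replicate 2, where 0.796% did. Missing values fell mainly in replicate 1, the library with more counts, and their share in the respiratory chain genes was near the background.

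Complex II, succinate dehydrogenase, had all 4 subunits detected in both libraries, with Sdha the highest. Sdha, the flavoprotein that oxidises succinate, stood at 46.2 and 54.0 TPM, and the iron-sulfur subunit gene Sdhb at 20.8 and 15.3 TPM. The membrane anchors followed with Sdhc at 25.0 and 32.8 TPM and Sdhd at 19.8 and 18.8 TPM. All 4 lay within 2-fold between libraries. Its assembly factors were low, with Sdhaf2, which helps attach the flavin, at 6.79 and 6.74 TPM, Sdhaf3 at 1.29 and 2.25 TPM, Sdhaf1 at 1.11 and 1.24 TPM, and Sdhaf4 at 6.12 TPM from 110 counts and 0.60 TPM from 6 counts.

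Complex III was led by the genes of its so-called core proteins, which carry no cofactor, with Uqcrc1 at 134 and 110 TPM and Uqcrc2 at 99.2 and 54.4 TPM. Uqcrb was at 50.6 and 34.7 TPM, Uqcrh at 20.4 and 30.4 TPM, Uqcr11 at 25.7 and 18.5 TPM and Uqcr10 at 20.9 and 14.3 TPM. Uqcrfs1, which encodes the Rieske iron-sulfur protein and is the only catalytic subunit of the complex in the set, was low at 6.63 and 14.8 TPM, and Uqcrq lower at 2.90 and 11.9 TPM. Both were over 2-fold higher in replicate 2. The assembly factors went the other way, with Uqcc1 at 44.3 and 11.5 TPM, Uqcc3 at 9.22 and 2.92 TPM, and Uqcc2 at 5.42 and 2.78 TPM.

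Among the widely expressed subunits of complex IV, cytochrome c oxidase, 11 genes had medians of 53.4 and 42.9 TPM. Cox8a was nearly equal in the libraries at 72.5 and 72.9 TPM, Cox6a1 was at 69.3 and 60.6 TPM, and Cox6c at 94.4 and 50.3 TPM. Cox5a (9.83 and 10.9 TPM) and Cox7a2 (14.3 and 7.77 TPM) were the lowest. Cox7b was the only one of the 11 over 2-fold apart, at 57.4 and 13.8 TPM. Ndufa4, named for complex I but known as a subunit of complex IV, was placed here, at 44.0 and 42.9 TPM. The 4 highest assembly factors of the complex were all over 2-fold higher in replicate 1: Cox20 (78.6 and 37.6 TPM), the copper chaperone Cox17 (41.6 and 15.5 TPM), Cox16 (41.4 and 15.5 TPM) and Cox18 (20.6 and 8.95 TPM). Cox14 was at 0.10 TPM from 2 counts and 3.90 TPM from 42 counts.

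Several complex IV subunits exist as a widely expressed form and a form restricted to tissues such as muscle, lung, testis or hypoxic cells. In 5 of 6 pairs the widely expressed form was far above the other. Cox4i1 was at 37.2 and 50.2 TPM, at least 241-fold and 182-fold above Cox4i2, which had no count. Cox8a was at least 186-fold and 102-fold above the muscle form Cox8b, and Cox7a2 at least 37.0-fold and 11.0-fold above the muscle form Cox7a1, both likewise without a count. Ndufa4 was at least 394-fold above Ndufa4l2 in replicate 1 and 107-fold above it in replicate 2, where Ndufa4l2 had 6 counts. The bounds given as at least are set against 3 counts in each library and cover counting error only. As given above, 7.14% of coding genes with at least 20 counts in replicate 2 had none in replicate 1. The ratio of Cox6a1 to its heart and muscle form Cox6a2 was 29.7 and 48.5, with Cox6a2 at 2.33 and 1.25 TPM from 40 and 12 counts.

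The sixth pair did not follow. Cox6b2, known as the testis form of subunit VIb, stood at 60.9 TPM from 587 counts and 37.7 TPM from 242 counts. Cox6b1, the widely expressed form, was at 70.6 TPM from 867 counts and 45.7 TPM from 311 counts. The ratio of Cox6b1 to Cox6b2 was 1.16 and 1.21 (log2 ratio 0.25 ± 0.05, SD, n = 2), and Cox6b2 was among the 5 highest subunit genes of its complex by the mean of the libraries. The genes lie apart on chromosome 7, Cox6b2 at 4751792 to 4753094 and Cox6b1 at 30616861 to 30626151, both on the minus strand. All of their counts were whole, the deposited posterior standard deviation of the count was 0 for both in both libraries, and no annotated gene overlaps Cox6b2. Its protein coding transcripts held 91.7% and 69.5% of its signal. A different one of them led in each library, with 45.1% in replicate 1 and 25.8% in replicate 2. Markers of muscle, a tissue in which Cox8b and Cox7a1 are known, were 0 of 5 detected in both libraries, with 4 and 3 of them at 0. Tnnt3 passed the detection rule in replicate 1 alone, with 69 counts (2.58 TPM). Testis markers were not measured here.

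**Figure D3:**
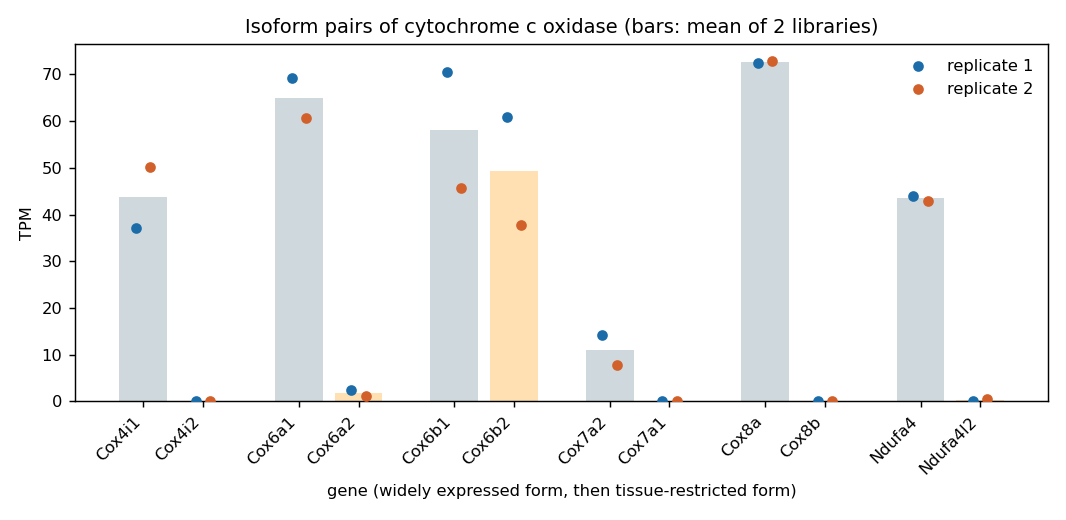
TPM (vertical axis) of 6 complex IV isoform pairs, the widely expressed form in grey and the tissue-restricted form in yellow. Bars are means of the 2 libraries and points are single libraries. Cox6b2, at 60.9 and 37.7 TPM, is the only tissue-restricted form whose bar comes near that of its partner.

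The libraries were then set against each other gene by gene. On the log2(TPM + 1) scale, which understates changes of low genes, 35 of 103 genes detected in at least 1 library (34.0%) were over 2-fold apart, against 23.3% of coding genes detected the same way. Replicate 1 was higher for 17 (background 11.2%) and replicate 2 for 18 (background 12.1%), and 68 lay within 2-fold. The 10 genes that passed in 1 library alone entered through the library where they are high and so had to differ. Over the 93 genes detected in both libraries, 25 (26.9%) were over 2-fold apart, against 15.4% of coding genes detected in both. Of these 16 were higher in replicate 1 (background 10.1%) and 9 in replicate 2 (background 5.35%). Among all 103 genes the share was higher for short genes. Below an effective length of 1000 bases 29 of 76 respiratory chain genes (38.2%) were over 2-fold apart, beside 40.9% of coding genes, and from 1000 bases upward 6 of 27 (22.2%), beside 20.4%. By mean level the shares were 57.1% against 34.8% of coding genes below 10 TPM, 25.7% against 16.4% from 10 to 30 TPM, and 18.2% against 7.89% above. The shares by length and by mean level include the 10 genes that passed in 1 library alone. All 10 have means below 10 TPM, so the share there is not a free comparison. In bulk samples a smaller share of a cell type and less RNA per cell cannot be told apart.

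The genes over 2-fold apart were spread unevenly over complexes and roles, and whether these classes differ was not tested. Of 36 complex I subunits 2 were over 2-fold higher in replicate 1 and 10 in replicate 2, all 12 of them accessory subunits. For 5 of the 10 the direction was fixed by the detection rule, which they passed in replicate 2 alone. Among the 31 complex I subunits detected in both libraries the counts were 2 and 5. Complex V subunits had 4 and 1 of 16, or 4 and 0 of the 15 detected in both. Assembly factors of all complexes had 9 higher in replicate 1 and 5 in replicate 2, from a class of 24, or 8 and 2 of the 20 detected in both. The shares of coding genes in these directions were 11.2% and 12.1% when detected in at least 1 library. They were 10.1% and 5.35% when detected in both. Restricting the comparison over all members to means from 10 TPM upward and to 100 counts or more on the higher side left 15 genes, of which 12 were higher in replicate 1. The count limit is easier to pass in replicate 1, with 19528380 nuclear coding counts against 10411450. The share of all coding genes under this filter was not computed, so the direction of these 15 is not read as a result. The greatest differences among these 12 were Ndufaf3 (2.53 on the log2 scale), Atp5e (2.46), Ndufa7 (2.09, from 59.4 and 13.2 TPM) and Cox7b (1.98). Higher in replicate 2 were Ndufb5 (3.71 and 25.1 TPM), Ndufab1, the acyl carrier protein of complex I (11.1 and 29.2 TPM), and Uqcrfs1. The median difference of replicate 1 minus replicate 2 was 0.02 over the 103 genes and 0.09 over the background. The sign of the median turned with the scaling, at -0.14 after rescaling to coding genes, -0.086 with TMM factors and -0.11 with DESeq2 size factors, while the background median moved to -0.08, -0.05 and -0.06. Relative to the background the members stayed between -0.07 and -0.04 under these settings. With TMM factors 10 genes were over 2-fold higher in replicate 1 and 15 in replicate 2. Together these were 24.3%, against 19.0% of coding genes, a background share that was not split by direction.

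Markers of the neutrophil lineage moved with the libraries. Of 10 such genes 8 were over 2-fold higher in replicate 2 and 1 was detected in both. Summed, they came to 5.11 TPM against 346 TPM in replicate 2, with 5 and 2 of the 10 at 0, Mmp8 and Retnlg in both. Their part in the differences of respiratory chain genes was not tested.

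**Figure D4:**
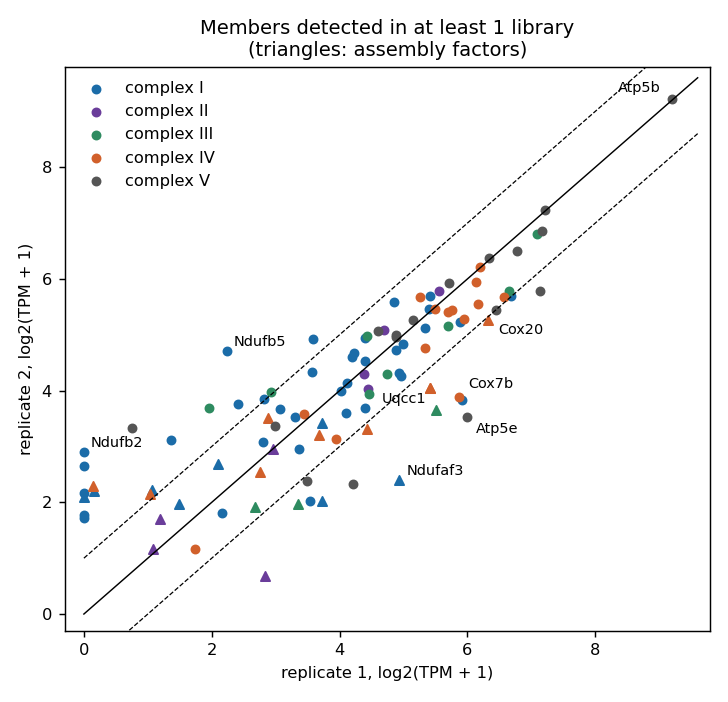
Levels of the 103 genes detected in at least 1 library, replicate 1 on the horizontal and replicate 2 on the vertical axis, both as log2(TPM + 1). Circles are subunits and other genes, triangles are assembly factors, colours are complexes, the solid line marks equality and the dashed lines a 2-fold difference. Atp5b lies on the line at the top, 35 genes lie outside the dashed lines, and 6 genes stand at 0 in replicate 1.

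Many respiratory chain genes have processed pseudogenes, copies of their messenger RNA inserted elsewhere in the genome, and short reads can then fit both places. Transcripts of 29 of the 109 genes matched an annotated pseudogene with at least 95% identity over at least 100 bases. Of the 57 matching pseudogenes 45 are in the tables, and they belong to 25 genes. Above 50% of the joint counts fell on the pseudogenes for 4 genes in replicate 1 (Ndufs5, Ndufb4, Ndufa12 and Atp5l) and 1 gene in replicate 2 (Ndufb4). The pseudogenes named here were picked after their values were seen, apart from Ndufb4c.

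Ndufs5, an accessory subunit gene on chromosome 4 (123712710 to 123718202, minus strand), had 0 and 25 counts. Its processed pseudogene BC002163 (chromosome 16, 42955631 to 42955949, plus strand) had 369 and 0 counts. The copies share 99.4% of 319 aligned bases, all within the coding sequence, and differ at 2 of them. Both differences lie in the stretch below (capitals), taken from positions 143 to 202 of the Ndufs5 transcript in GENCODE M21, and read T31C and A55G from the gene to the pseudogene, counted from the first base shown.
Ndufs5: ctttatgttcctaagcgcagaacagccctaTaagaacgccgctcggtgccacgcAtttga
BC002163: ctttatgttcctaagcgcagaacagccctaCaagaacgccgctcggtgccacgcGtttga
The pair summed to 369 counts in replicate 1 and 25 in replicate 2, so the order of the libraries turned once the copy was added.

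Ndufb4 had 0 and 30.3 counts, and Ndufb4c, a processed pseudogene on chromosome 15 (73809507 to 73809896, minus strand) that equals its whole coding sequence over 390 bases without a difference, had 101 and 97.7 counts. The sum was 101 and 128 counts. Atp5g2 shares 441 identical bases with Gm10175 and Gm10231, which together held 214 and 259 counts beside 1510 and 387 on the gene. Atp5l is identical over 309 bases to Gm10221, with 16.5 and 37.7 counts there beside 8.52 and 62.3 on the gene, and Ndufa12 had 246 and 181 counts beside 385 and 87.5 on Gm15920. Ndufab1 had 272 and 274 counts against 46.05 and 2.41 on its copies. The levels of these genes are uncertain, since how reads were divided between a gene and its copy is an estimate. With the copies added, 96 genes were detected in both libraries and 32 were over 2-fold apart, 17 higher in replicate 1 and 15 in replicate 2. Ndufb2 has a copy in the tables that had no count, and Ndufa5, Ndufb6 and Ndufaf6 have no copy by this rule.

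**Figure D5:**
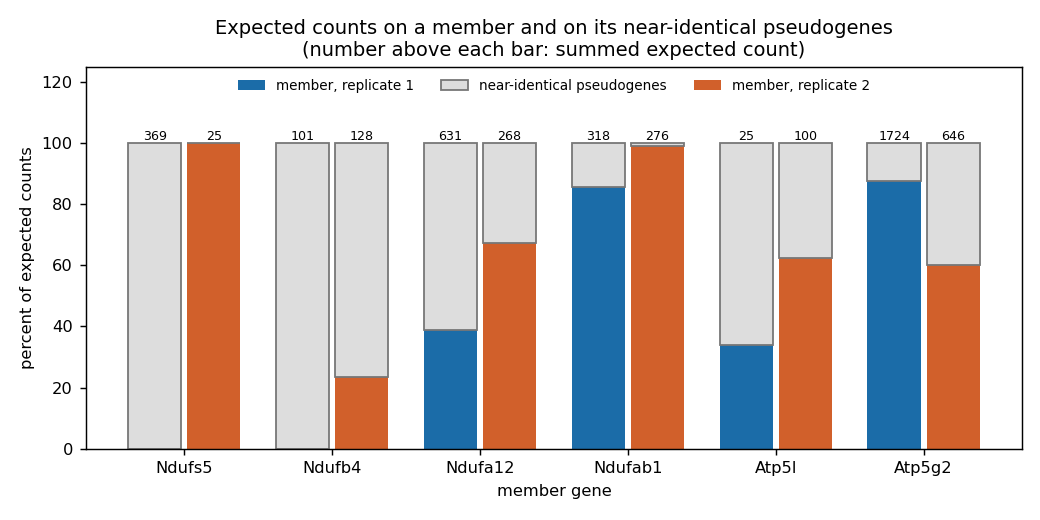
Share of joint expected counts (percent, vertical axis) on 6 genes (coloured) and on their near-identical pseudogenes (grey), by library, with the summed count above each bar. For Ndufs5 the counts pass wholly from the pseudogene in replicate 1 (369) to the gene in replicate 2 (25).

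The transcript tables showed how far the gene levels stand for coding messages. Among the 93 genes detected in both libraries, 27 have a single transcript in the tables and 66 have several. The same transcript led in both libraries in 42 of these 66, and in 37 of the 56 with at least 100 counts in both. Protein coding transcripts held a median of 92.1% and 79.1% of a gene's TPM, but less than 50% in 18 genes of replicate 1 and 14 of replicate 2, 11 of them in both. Ndufs6 was assigned wholly to a transcript of the nonsense-mediated decay class in replicate 1 and wholly to a protein coding one in replicate 2. Ndufa3 did the same, with coding shares of 0.537% and 98.3%. Even Atp5b had a coding share of 49.4% and 34.2%, and Uqcc1, with 19 transcripts, 28.6% and 7.39%. Uqcrq was assigned to a 1521-base transcript in replicate 1 and led by a 405-base one in replicate 2, which bears on its TPM of 2.90 and 11.9 from 130 and 84 counts. These shares are estimates from short reads of total RNA, which also holds unspliced molecules. Gene overlap adds a further limit, since 49 of the 109 genes overlap another annotated gene, 34 a protein coding one and 8 a protein coding one on the same strand. Cox4i1 lies within Gm20388 on its own strand, which was given 1034 and 548 counts (8.42 and 7.90 TPM), and Cox16 overlaps Gm20498 (81.5 and 182 counts).

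A list of 38 further genes of the pathway outside the naming rule covered electron carriers, other assembly factors and transcriptional regulators. Of these 32 were detected in both libraries, against 45.5% of nuclear protein coding genes. By the 2-fold rule 8 were higher in replicate 1 and 5 in replicate 2, beside 11.2% and 12.1% of coding genes detected in at least 1 library. The median difference was -0.07, beside 0.09 for those coding genes. By the mean of the libraries the highest was Pprc1, which encodes a coactivator of the PGC-1 family, at 58.8 and 61.9 TPM, followed by Nrf1 itself at 48.5 and 29.2 TPM and Cyc1, the cytochrome c1 subunit of complex III, at 30.1 and 28.1 TPM. Gabpa, the DNA-binding subunit of GABP whose motif was searched above, stood at 34.4 and 22.2 TPM. Ppargc1a, a relative of Pprc1 that encodes PGC-1 alpha, had 0 and 51 counts (0 and 0.67 TPM). The complex IV factors Coa3 (0.53 and 9.26 TPM), Coa6 (0.05 and 2.35 TPM) and Cmc2 (0.23 and 6.27 TPM) were below the detection rule in replicate 1, Higd1a (0 and 0.86 TPM) was below it in both, and Pet117 had no count in either.

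By median TPM, the genes for subunits encoded by mitochondrial DNA stood far above those of their nuclear partners. The 13 genes had medians of 2434 and 1894 TPM, and 11 were detected in both libraries. Per complex, the median mitochondrial gene exceeded the median nuclear subunit gene 155-fold and 83.3-fold in complex I, 162-fold and 100.4-fold in complex III, 29.6-fold and 20.95-fold in complex IV, and 80.9-fold and 131-fold in complex V, with tissue-restricted isoforms left out. In this order the medians rest on 7, 1, 3 and 2 mitochondrial genes, those of complex V being mt-Atp8 (9179 and 6316 TPM) and mt-Atp6. Widest apart were mt-Nd3 (0 and 443 counts), mt-Co2 (18979 and 0 counts) and mt-Atp6 (45.9 and 4170 TPM). Each of these was below the nuclear subunit median of its complex in the library where it was low. Mitochondrial genes are known to have nuclear copies, and read sharing with these was not tested. Complex II has no mitochondrial subunit.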

How the data were processed

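Total RNA sequencing tables of 2 libraries of 100 hematopoietic stem cells each were used as deposited. Expected counts per gene and transcript are the authors' estimates of reads, as deposited, and are not all whole. TPM and posterior mean TPM were deposited beside them per the file headers, and posterior standard deviations of the counts as well. FPKM columns, also deposited, served as an alternative. The percent of a gene's signal on each transcript was deposited by the authors with the transcript tables. Per the text deposited with the samples, reads were counted on mm10 with GENCODE M4 genes. Sources used here give no aligner, program version or strand handling.

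Names came from a table of gene names, which matched 42462 of 43346 identifiers (98.0%), and positions and biotypes from GENCODE M21 of the same build. The rule found 110 annotated genes with 109 symbols, and all 109 symbols are in the tables. Roles were assigned from textbook knowledge. The members and lists were chosen with earlier results of these data known. Both libraries form 1 group, so nothing was tested between groups. Differences are on the log2(TPM + 1) scale, and isoform ratios on the log2 scale use a pseudocount of 0.1 TPM. Where no read was counted, the limit printed is that of 3 counts, which covers counting error only, since reads amplified by PCR are not independent molecules. Named genes are, per complex, the 5 highest and 3 lowest detected subunits, the 3 highest assembly factors, members not detected in both libraries, well-counted members over 2-fold apart, the core of complex I, complex II, the isoform pairs and the c-ring. Other members are given to complete a complex, and not every gene that the rule picks is reported here.

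Pseudogenes were matched to member transcripts with blastn 2.17.0. Expected counts were rounded for TMM factors (edgeR 4.0.16) and size factors (DESeq2 1.42.0) in R 4.3.3. Tables and plots were made with pandas 2.3.3, numpy 2.4.6 and matplotlib 3.10.9 under Python 3.11.15, and the comparison of libraries was tested on simulated data. Alternatives were other detection limits, pseudocounts, scalings, gene filters and each library alone. Of the 109 genes, 21 were not matched in the promoter table, among them Atp5a1, Atp5f1, Atp5mpl, Atp5s, Cox17, Cox18, Cox4i1, Cox4i2, Cox6a2, Cox6c, Cox8c, Ndufa2, Ndufa4l2, Ndufaf6, Ndufb9, Ndufs1, Sdhc, Uqcrb, Uqcrc2 and Uqcrq.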

Additional observations from a re-analysis of the deposited data

Results flagged for a closer look

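Entries that carry the name of a respiratory chain gene but are not protein coding lie outside the measurements above, and 5 of 12 such entries held more counts in a library than the 3 that a count of 0 allows. Ndufb4c held 101 counts in replicate 1 and 97.7 in replicate 2. The others passed this limit in replicate 1 and had no count in replicate 2: Ndufab1-ps with 46.05 counts, Cox6c2 with 33.5, Cox20b with 4 and Ndufs6b with 4. All are processed pseudogenes that match the gene of like name, so whether a read belongs to the gene or its copy is an estimate.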

How the results depend on the processing

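Of 88 values recomputed under alternative settings, 70 kept their direction and moved by less than a limit. This limit was the spread between the libraries, or 1.5 times for counts. The median difference between the libraries has no such spread and was judged by a fixed limit. With FPKM it moved from 0.02 to 0.098 and was still among the 70. For levels and ratios, leaving out 1 of the 2 libraries cannot move the mean beyond their SD. Those settings could only fall among the 70 and are no check. The median difference between the libraries reversed from 0.02 to -0.14 with TPM rescaled to coding genes, -0.086 with TMM factors and -0.11 with DESeq2 size factors, and rose to 0.16 over genes detected in both libraries. Over those genes the median level moved to 19.7 TPM, complex I to 18.1 TPM and complex IV from 25.5 to 47.8 TPM, as undetected isoforms drop out. Complex I, whose libraries were nearly equal, moved to 15.75 TPM with posterior mean TPM and 15.76 TPM with rescaled TPM. Without tissue-restricted isoforms, subunits exceeded assembly factors by 2.08 on the log2 scale. Isoform ratios shrank with a pseudocount of 1 TPM, to log2 values of 5.47 for Cox4i1 over Cox4i2, 4.59 for Cox6a1 over Cox6a2, 3.53 for Cox7a2 over Cox7a1, 6.20 for Cox8a over Cox8b and 5.23 for Ndufa4 over Ndufa4l2. With posterior mean TPM they were 7.49 for Cox4i1, 5.25 for Cox7a2 and 7.995 for Cox8a, where the estimate for the restricted form is above 0. Counts with near-identical pseudogenes added, chosen after seeing the data, are given above. No paired analysis was possible because both libraries belong to a single group. Depth limits the low genes, as 3 counts stand for 0.0829 to 0.390 TPM of the members at 0 in replicate 1.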
